A study of Drosophila melanogaster with 43 samples.

Results

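The aminoacyl-tRNA synthetase genes described here are the 21 genes whose symbol in the files starts with Aats-, out of 13792 genes in the tables of S2 cells and 14447 gene features in those of fly heads. S2 is a cell line from Drosophila embryos that resembles blood cells. The series concerns Orb and Orb2, fly CPEB proteins that bind mRNA and control its translation. Orb2B cells (2 libraries) overexpressed Orb2B, a form of Orb2, and were given 250 µM CuSO4 and 300 µg/ml hygromycin B, and background cells (2 libraries) were given 250 µM CuSO4 alone. Both were kept at 27 °C. Hygromycin B is an inhibitor of translation, and its presence and that of Orb2B cannot be told apart in this design. The labels do not say whether the Orb2B cells were 1 clone. Head extract of Orb2 WT-GFP flies kept at 25 °C on semi-defined medium was split by biotinylated isoxazole (b-isox), a compound that brings down low-complexity proteins and RNA, into a pellet (6 libraries) and a supernatant (6 libraries). Pellet and supernatant share that genotype, and no age is given. Head replicates 1 to 4 carry gene names and were tested, and replicates 5 and 6 were looked up by position. The crosslinking libraries of the series were not analysed here. The labels do not say that replicates came from separate cultures or flies, so the p-values reflect only how much these libraries vary, and that variation may be technical.

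Aminoacyl-tRNA synthetases join each amino acid to its tRNA and so supply the substrates of translation. Animal cells keep a cytosolic set and a mitochondrial set, both encoded in the nucleus, and for some amino acids 1 gene serves both compartments. In mammals several cytosolic synthetases are held in a multisynthetase complex by scaffold proteins, while the others are free-standing.

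Among the 21 symbols only Aats-ala-m ends in -m, the mark of a mitochondrial enzyme in this naming. RefSeq's current names (assembly Release 6 plus ISO1 MT, used for names only) add the suffix to 5 more members: Aats-leu is LeuRS-m, Aats-met is MetRS-m, Aats-phe is PheRS-m, Aats-pro is ProRS-m and Aats-ser is SerRS-m. Both divisions are given below, with 1 member against 20 by the older symbols and 6 against 15 by the current ones. Of the 15, Aats-arg, Aats-asp, Aats-gln, Aats-glupro, Aats-ile and Aats-lys belong to the multisynthetase complex as it is known in mammals. The remaining 9 are Aats-ala, Aats-asn, Aats-cys, Aats-gly, Aats-his, Aats-thr, Aats-trp, Aats-tyr and Aats-val, called free-standing here.

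The orb2 transcript, which checks the S2 labels, was at 2509 and 2850 RPKM in Orb2B cells, against 7.50 and 8.73 RPKM in background cells (log2 difference 8.34, SE 0.16, limma adjusted p = 5.11e-07). RPKM is a read count normalized to gene length and library size, and FPKM is the same for sequenced fragments. Between 6670 and 7129 genes reached 1 RPKM in an S2 library. Absolute depth is not known, but the steps between low S2 values put Orb2B replicates 1 and 2 at 0.982 and 1.66 times, and background replicate 2 at 0.783 times, the depth of background replicate 1. These depths are rough, since 56.6%, 49.5% and 63.4% of the low genes, in the same order of libraries, lay within 0.2% of a ratio of small whole numbers. Of 7 blood-cell marker genes, 4 were lower in Orb2B cells (Hml, eater, Sr-CI and srp), and nimC1 and He were below the minimum for a test in both groups. The remaining gene of the list, Pxn, was not among those 4, and its values are not given here. Over all genes tested in S2 cells, 19.9% were called lower at a limma adjusted p under 0.05. Of the 7, 2 had a mean of at least 1 scaled RPKM in Orb2B cells and 5 in background cells. The list summed to 85.4 and 133 scaled RPKM in Orb2B cells, against 194 and 205 in background cells. Their part in the results on S2 cells was not tested.

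In S2 cells the synthetase genes moved in both directions. Values are given as scaled RPKM, the deposited value divided by a factor for its library, with n = 2 per group. Of the 21 members, all of which passed the minimum mean of 1 RPKM, 5 rose and 4 fell in Orb2B cells at a limma adjusted p under 0.05, and 12 were not called. Over all 7072 genes tested the rule called 36.9%, with 17% higher and 19.9% lower, so the members were called about as often as genes in general. The median log2 difference (Orb2B minus background) was 0.03 over the members and -0.00 over all genes. The groups did not overlap for 18 members, 10 higher and 8 lower, and over all genes they did not overlap for 73.1%. The members summed to 1011 and 947 scaled RPKM in Orb2B cells, against 953 and 933 in background cells, so the sum over the 21 members differed little between the groups. As in any bulk sample, a change in the mix of cells and a change in RNA per cell cannot be told apart.

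**Figure D1:**
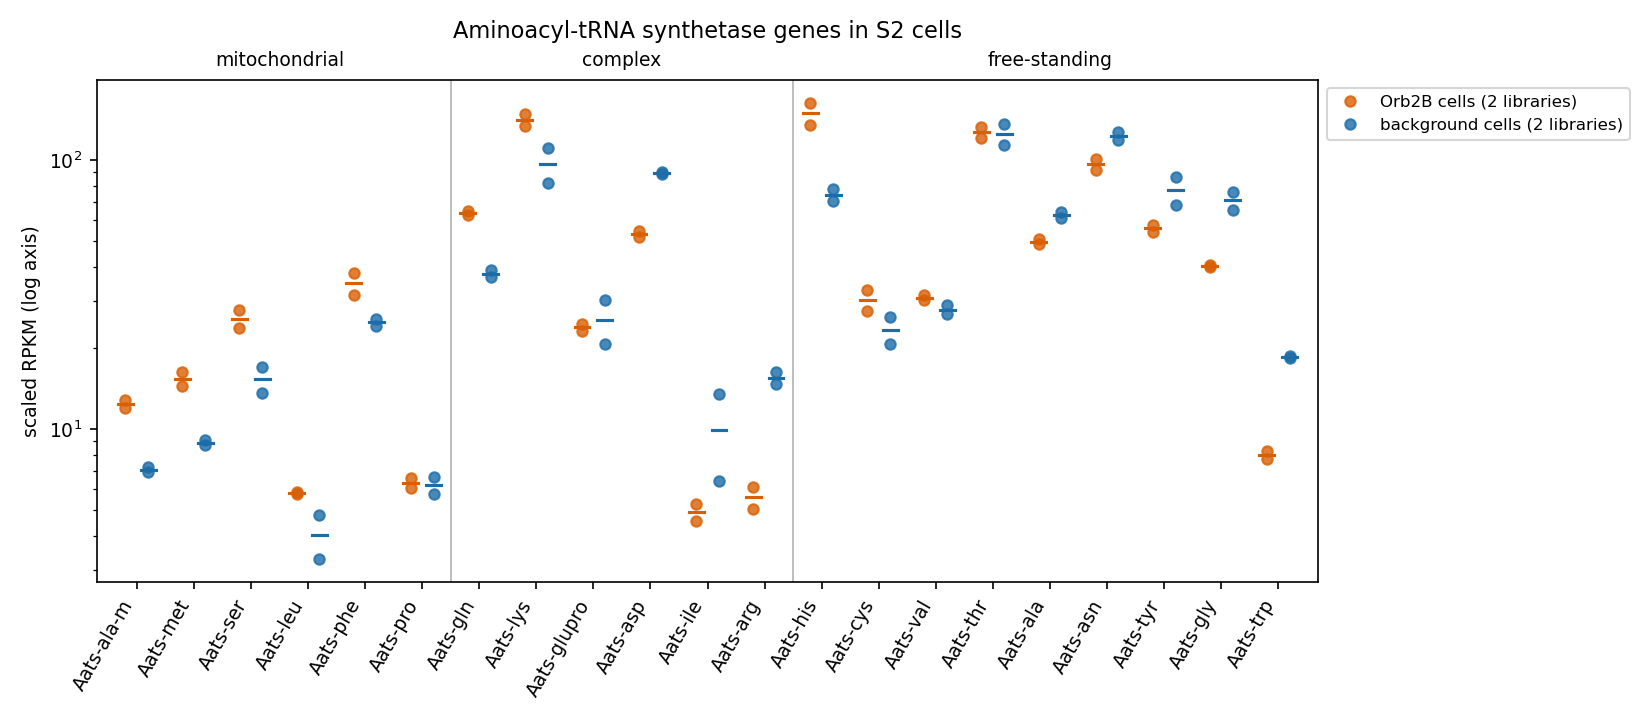
Scaled RPKM (log axis) of the 21 synthetase genes in each S2 library, Orb2B cells left of background cells, with short bars for the means of 2 libraries; genes are grouped as mitochondrial by current name, complex and free-standing. The 6 mitochondrial genes have the higher mean in Orb2B cells, while Aats-arg and Aats-trp lie lowest relative to background cells.

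The 6 mitochondrial members by current name had a median log2 difference of 0.61, with single values between 0.03 and 0.77, and 3 of them rose and none fell. Over all genes tested 17% were called higher and 19.9% lower, and the counts of members were not tested against these shares. Aats-ala-m, the mitochondrial alanyl-tRNA synthetase, was at 12.0 and 12.8 scaled RPKM in Orb2B cells, against 6.90 and 7.20 in background cells (log2 difference 0.77, SE 0.19, adjusted p = 0.0155). Aats-met, the mitochondrial methionyl enzyme, was at 16.3 and 14.5 in Orb2B cells and at 9.07 and 8.69 in background cells (log2 difference 0.76, SE 0.19, adjusted p = 0.0162). Aats-ser, the mitochondrial seryl enzyme, was at 27.7 and 23.8 in Orb2B cells and at 13.6 and 17.0 in background cells (log2 difference 0.73, SE 0.20, adjusted p = 0.0223). For each of these 3 genes both Orb2B libraries lay above both background libraries, as they did for 36.5% of all genes.

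The other mitochondrial members were not called. Aats-phe was at 38.1 and 31.6 scaled RPKM in Orb2B cells and at 24.2 and 25.7 in background cells (log2 difference 0.47, SE 0.18, adjusted p = 0.0764). Aats-leu was at 5.74 and 5.82 in Orb2B cells and at 3.28 and 4.81 in background cells (log2 difference 0.49, SE 0.24, adjusted p = 0.146). The groups did not overlap for either gene, and neither passed the test. Aats-pro was at 6.55 and 6.06 in Orb2B cells and at 5.72 and 6.64 in background cells, and its groups overlapped (log2 difference 0.03, negative when values were used as deposited). The calls of Aats-ala-m, Aats-met and Aats-ser were each lost without Orb2B replicate 1 and without Orb2B replicate 2, where the adjusted p lay between 0.0716 and 0.213 and the log2 difference between 0.65 and 0.86.

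Mitochondrial synthetases that carry other symbols in the files moved in both directions, and their difference from the 6 members was not tested. Of 10 such genes, including the seryl synthetase paralogue Slimp, 9 could be tested and their median log2 difference was -0.05. CG5660, the mitochondrial valyl enzyme, rose (2.70 and 2.77 scaled RPKM in Orb2B cells, 1.12 and 1.51 in background cells, log2 difference 0.84, adjusted p = 0.0301). CG31739, the mitochondrial aspartyl enzyme, fell (5.28 and 6.13 in Orb2B cells, 12.0 and 12.9 in background cells, log2 difference -1.07, adjusted p = 0.00538). The 5 cytosolic synthetase genes with other symbols, for leucine, methionine, serine and the pair of phenylalanyl subunits, had none called by limma, 0 at an unadjusted p under 0.05, which 47.9% of all genes reached (23.3% higher and 24.6% lower), and a median of -0.01.

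The 15 members without a mitochondrial name had a median log2 difference of -0.33, and 2 of them rose and 4 fell. They were called about as often as genes in general, of which 36.9% were called, 17% higher and 19.9% lower. By the older symbols, the 20 members other than Aats-ala-m had a median of 0.03, with 4 higher and 4 lower. The difference between the 6 and the 15 is a description over members and was not tested.

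Among the 6 complex members, 1 rose and 2 fell, beside 17% called higher and 19.9% called lower over all genes. Aats-arg, the arginyl enzyme, had the most negative difference of the family, with 5.06 and 6.08 scaled RPKM in Orb2B cells, against 14.7 and 16.3 in background cells (log2 difference -1.40, SE 0.20, adjusted p = 0.00187). Aats-asp, the aspartyl enzyme, was at 51.8 and 54.5 in Orb2B cells and at 88.9 and 90.3 in background cells (log2 difference -0.75, SE 0.16, adjusted p = 0.0100). Aats-gln, the glutaminyl enzyme, was at 64.7 and 62.6 in Orb2B cells and at 36.6 and 39.0 in background cells (log2 difference 0.75, SE 0.16, adjusted p = 0.0105). The groups stood well apart for all 3 genes, and replicates within a group differed little. Aats-asp and Aats-gln lost their calls without Orb2B replicate 1 (adjusted p = 0.140 and 0.111) and without Orb2B replicate 2 (adjusted p = 0.0765 and 0.0736), while the call of Aats-arg held in each of the 4 fits that left out 1 library.

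The other complex members were not called. Aats-lys, the lysyl enzyme and the second most abundant member, was at 148 and 133 scaled RPKM in Orb2B cells and at 111 and 81.8 in background cells (log2 difference 0.56, SE 0.20, adjusted p = 0.0641). Aats-ile, the isoleucyl enzyme, was at 4.56 and 5.27 in Orb2B cells and at 6.39 and 13.4 in background cells (log2 difference -0.86, SE 0.33, adjusted p = 0.0755). Its background libraries differed by about as much as the groups did. Aats-glupro, which encodes a fused glutamyl- and prolyl-tRNA synthetase, was at 24.6 and 23.2 in Orb2B cells and at 30.1 and 20.7 in background cells, and its groups overlapped.

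Among the 9 free-standing members, 1 rose and 2 fell, beside the same 17% and 19.9% over all genes. Aats-his, the histidyl enzyme, rose most of the family, with 163 and 135 scaled RPKM in Orb2B cells, against 77.7 and 70.3 in background cells (log2 difference 1.0, SE 0.18, adjusted p = 0.00484). Aats-trp, the tryptophanyl enzyme, was at 7.72 and 8.31 in Orb2B cells and at 18.7 and 18.3 in background cells (log2 difference -1.16, SE 0.18, adjusted p = 0.00268). Aats-gly, the glycyl enzyme, was at 40.0 and 40.5 in Orb2B cells and at 76.1 and 65.4 in background cells (log2 difference -0.80, SE 0.17, adjusted p = 0.00943). The groups did not overlap for these 3 genes, as for 73.1% of all genes. The call of Aats-trp held with any 1 library left out, that of Aats-his was lost without Orb2B replicate 1 (adjusted p = 0.0539), and that of Aats-gly was lost without Orb2B replicate 1 or 2 (adjusted p = 0.0989 and 0.0690).

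The 6 uncalled free-standing members had log2 differences between -0.46 and 0.37. Aats-thr, the threonyl enzyme, had the highest mean of the 21 members over the 4 libraries. It was at 132 and 121 scaled RPKM in Orb2B cells and 114 and 135 in background cells. Its groups overlapped (log2 difference 0.03, negative when values were used as deposited). Aats-tyr, the tyrosyl enzyme, was at 57.4 and 53.9 in Orb2B cells and at 86.7 and 68.2 in background cells (log2 difference -0.46, SE 0.18, adjusted p = 0.0845). Aats-asn and Aats-ala had differences of -0.35 and -0.33, and Aats-val and Aats-cys had 0.15 and 0.37. Over all 21 members, means in Orb2B cells reached from 4.91 scaled RPKM for Aats-ile to 149 for Aats-his, and means in background cells from 4.05 for Aats-leu to 125 for Aats-thr.

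**Figure D2:**
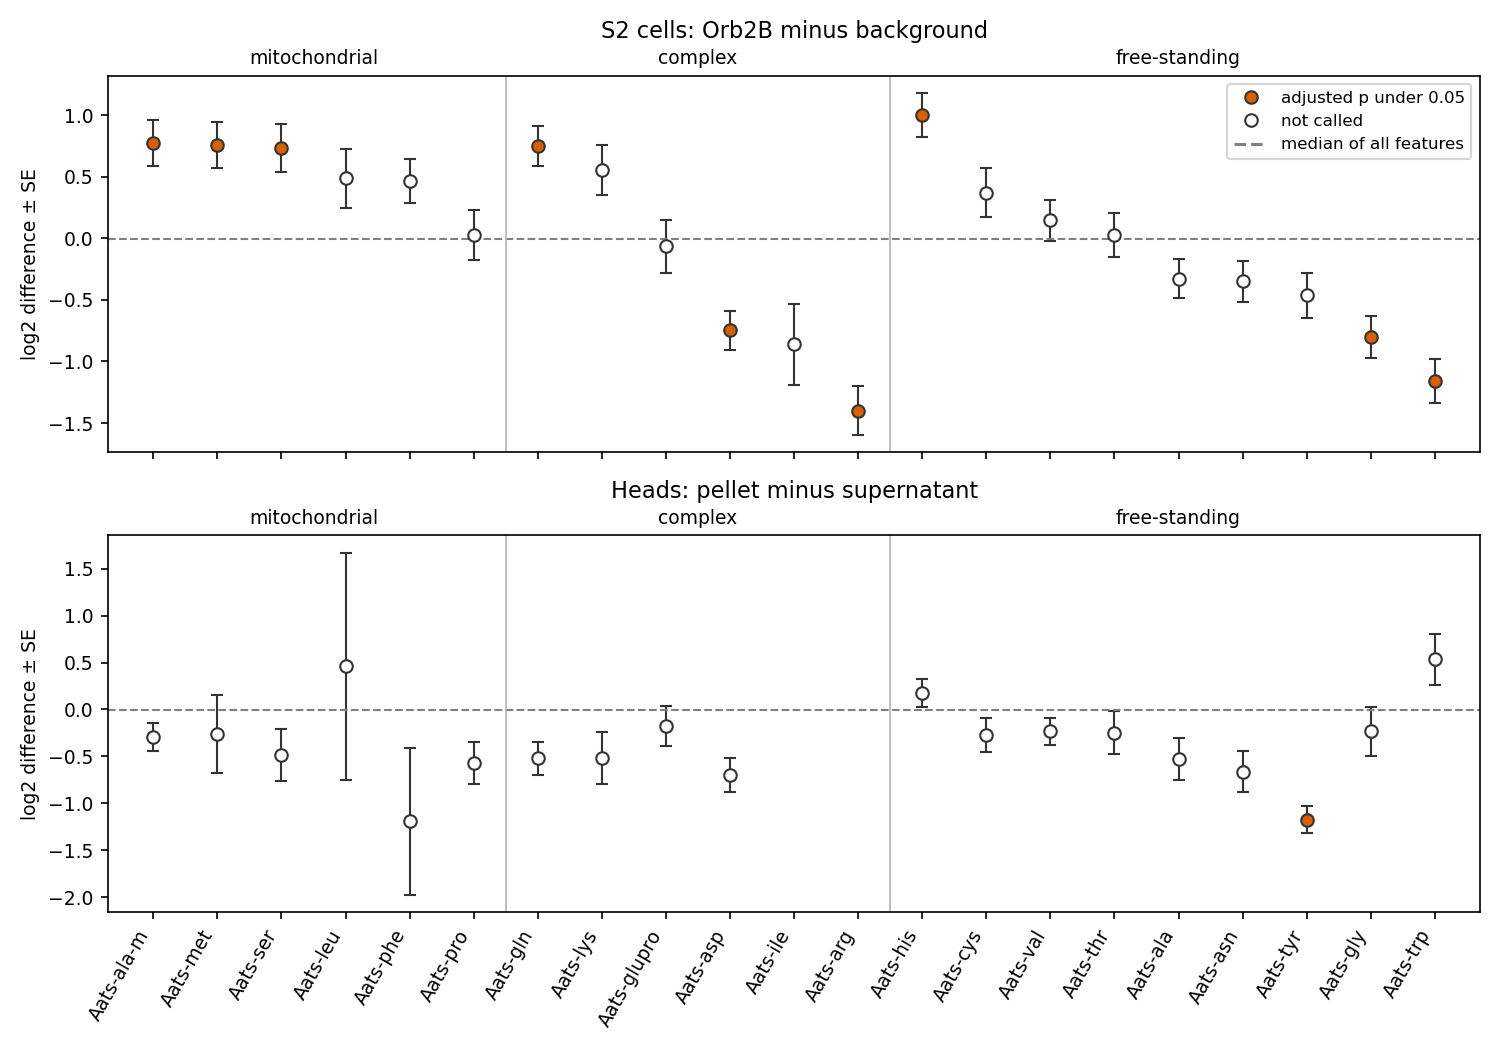
Log2 difference with its SE for each member, Orb2B minus background in S2 cells above and pellet minus supernatant in heads below; filled points have an adjusted p under 0.05 and the dashed line is the median of all features tested. In S2 cells the mitochondrial genes lie at or above 0 and the others on both sides, and in heads Aats-tyr is the filled point, at -1.17; Aats-arg and Aats-ile were too low to test there.

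For amino acids with separate mitochondrial and cytosolic genes, the ratio of the 2 RPKM values within a library needs no scaling between libraries. The current names give 16 such pairs, counting both cytosolic phenylalanyl subunits. All but 1 of these pairs have both genes above the minimum for a test. In 12 pairs both Orb2B libraries had a higher ratio of mitochondrial to cytosolic gene than both background libraries, in 2 pairs a lower one, and in 2 pairs the groups overlapped. The 12 include the mitochondrial asparaginyl gene CG6796 over Aats-asn, whose numerator was below that minimum, at 0.947 and 1.03 scaled RPKM in Orb2B cells and 0.583 and 0.336 in background cells; without it 11 pairs were higher. For single genes the groups were apart and higher in Orb2B cells in 36.5% of all genes. No such share was computed for ratios, and the pairs are not independent of the values above.

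Aats-ala-m over Aats-ala, both of them members, had ratios of 0.237 and 0.262 in Orb2B cells, against 0.113 and 0.113 in background cells. Aats-met over the cytosolic methionyl gene CG15100 had ratios of 0.848 and 0.760 in Orb2B cells and 0.466 and 0.459 in background cells. CG15100 itself was level, at 19.2 and 19.0 scaled RPKM in Orb2B cells and at 19.4 and 19.0 in background cells. In other pairs the member in the denominator moved: the mitochondrial tryptophanyl gene CG7441 over Aats-trp had 1.41 and 1.49 in Orb2B cells, against 0.491 and 0.579 in background cells. The 2 pairs with a lower ratio in Orb2B cells were CG31739 over Aats-asp and CG8257 over Aats-cys. Members that rose in Orb2B cells include Aats-gln and Aats-his, and Aats-gly fell. The name table holds no mitochondrial counterpart for these 3, nor for Aats-lys and Aats-thr.

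**Figure D3:**
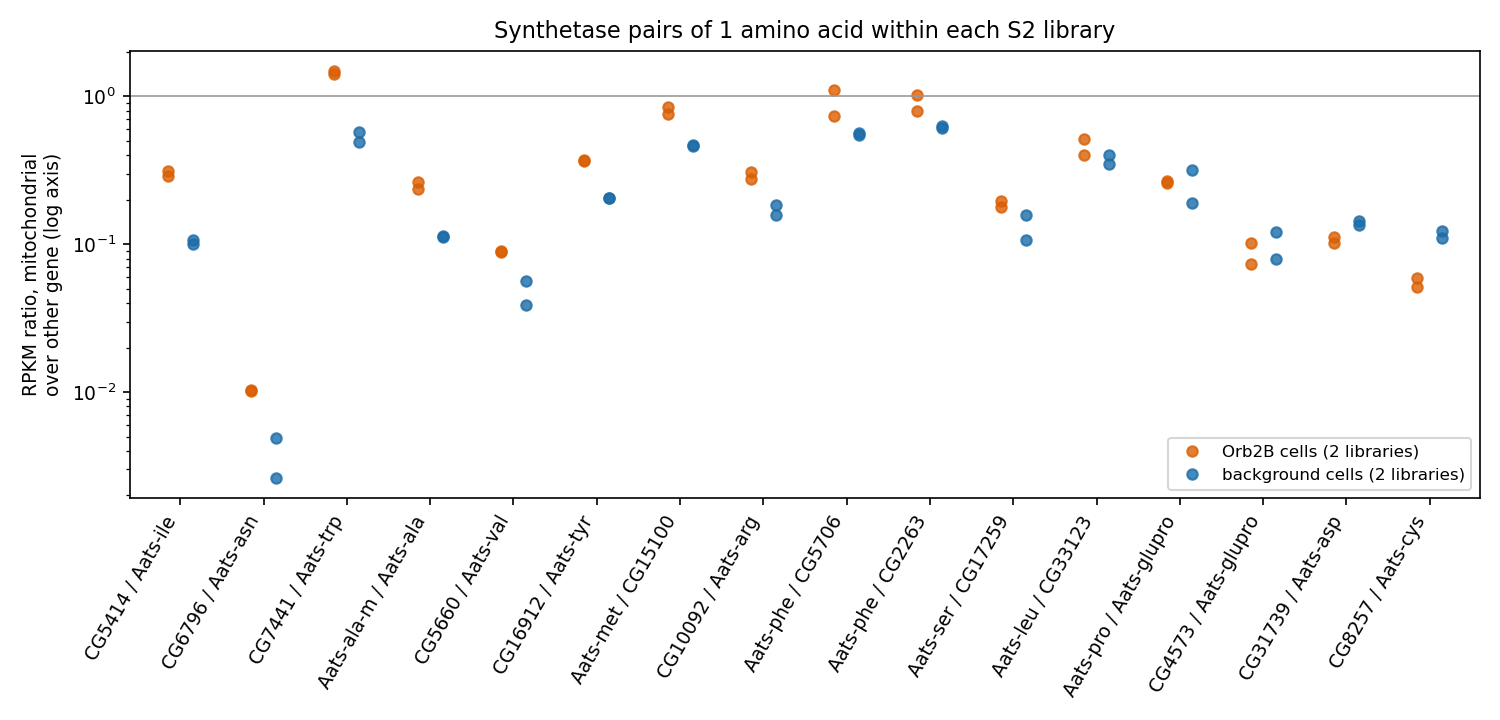
Ratio of RPKM, mitochondrial gene over the cytosolic gene of the same amino acid (log axis), in each S2 library, Orb2B cells left of background cells; pairs are ordered by the difference of their log2 ratios. Most pairs have their 2 Orb2B points above their 2 background points, while CG31739 over Aats-asp and CG8257 over Aats-cys have them below.

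Genes that work around the synthetases also moved in both directions in S2 cells. Over all genes tested the same rule called 36.9%, with 17% higher and 19.9% lower. Of 6 scaffold and amidotransferase genes, CG8235 (AIMP1), a scaffold protein of the multisynthetase complex, rose (143 and 139 scaled RPKM in Orb2B cells, 98.4 and 65.4 in background cells, log2 difference 0.81, adjusted p = 0.0242), and the other 5 were not called. Of 6 tested elongation factor genes, Ef2b, the translocation factor of elongation, fell by 1.11 on the log2 scale. Of 10 tested genes of the amino acid stress response, 2 fell and 2 rose. Gcn2, the kinase that senses uncharged tRNA, fell by 1.34 and crc, the fly ATF4 transcription factor, fell by 1.03, while Thor, the inhibitor of translation initiation 4E-BP, rose by 1.04 and CG3825 (PPP1R15), a phosphatase subunit acting on eIF2 alpha, rose by 0.70.

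Of 4 tested amino acid transporter genes, gb, JhI-21 and mnd fell, by 2.55, 1.45 and 1.15 on the log2 scale. JhI-21 was at 39.2 and 45.4 scaled RPKM in Orb2B cells, against 91.1 and 147 in background cells. Of 8 tested genes of tRNA processing, CG9987 (RtcB), a tRNA ligase, La, which binds new tRNA transcripts, and Elp3, the catalytic subunit of the Elongator complex, rose by 0.98, 0.79 and 0.68. Of 6 tested genes of amino acid metabolism, Gs1, a glutamine synthetase, Got1, an aspartate aminotransferase, and Gdh, glutamate dehydrogenase, rose by 1.65, 0.84 and 0.71. The adjusted p of all these called genes lay between 0.000939 and 0.0441, and the lists were chosen with results of these data known. The counts called per list were not tested against the 36.9% called over all genes.

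In heads the comparison asked which mRNAs were found in the b-isox pellet rather than the supernatant. As deposited, pellet FPKM exceeded supernatant FPKM by a median log2 of 0.87 over all features, so differences are given relative to that shift, as scaled FPKM with n = 4 per fraction. Of the 21 members, 19 had a mean of at least 1 FPKM and were tested. One of them, Aats-tyr, fell in the pellet and none rose (at an unadjusted p under 0.05, 6 were lower and 0 higher). Over all 8720 features the rule called 3.74%, with 1.97% higher and 1.77% lower, and an unadjusted p under 0.05 was reached by 22.6%, with 11.7% higher and 10.9% lower. The median log2 difference (pellet minus supernatant) was -0.30 over the members, with 16 of 19 negative, and -0.01 over all features. In values as deposited 17 of the 19 were positive. The fractions did not overlap for 6 members, all lower in the pellet, and over all features they did not overlap for 16%, with 8.12% higher and 7.86% lower in the pellet.

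Of 6 neuron markers, elav and Syt1 rose in the pellet and 4 were not called, with n-syb at a log2 difference of -0.15. The differences of brp, para and Cha are not given here, and Cha was summed with CG14302 and VAChT. Over all features the rule called 1.97% higher and 1.77% lower. Of 5 fat-body markers, Yp1 fell and 4 were not called, with Yp2 at -0.22, Rfabg at -0.09, Lsp2 at -0.00 and Fbp1 at 1.37. The 6 neuron markers summed to 598 to 1186 scaled FPKM in pellets, against 340 to 512 in supernatants, and the 5 fat-body markers to 1130 to 1252 in pellets, against 1860 to 2047 in supernatants. Yp1 and Yp2 make up most of the fat-body sums, with means of 675 and 491 in pellets and 1329 and 572 in supernatants. Of the neuron and fat-body markers none was at 0. Glia, muscle and photoreceptor markers were present in both fractions, and their sums overlapped between the fractions. The part of cell types in the results on heads was not tested.

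Aats-tyr lies at chr3L:16410449-16412402 (build dm3) and had an entry of its own under its FlyBase identifier in all 8 libraries. It was at 63.0, 57.4, 55.1 and 72.8 scaled FPKM in pellets 1 to 4, against 133, 134, 146 and 148 in supernatants 1 to 4. Every pellet lay below every supernatant, and the mean was 62.1 ± 7.87 in pellets and 140 ± 7.89 in supernatants (SD, n = 4 each). The log2 difference was -1.17 (SE 0.14, adjusted p = 0.00481), and the 4 same-numbered pairs gave differences between -1.39 and -1.02. With the replicate number as a block the adjusted p was 0.0154.

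The call of Aats-tyr depends on the scaling and on single replicates. Its deposited values were 92.2, 94.8, 70.0 and 92.5 FPKM in pellets and 96.9, 88.9, 98.4 and 109 FPKM in supernatants, which overlap. As deposited the log2 difference was -0.18 (adjusted p = 0.386), against the general shift of 0.87. Without replicate 1 the adjusted p was 0.0722 and without replicate 2 it was 0.0570, with log2 differences of -1.21 and -1.16.

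Same-numbered pellet and supernatant libraries deviated together across genes, so the fit with the number as a block stands beside the first one. It called 5 members lower in the pellet and none higher, where the same fit called 14.5% of all features, 6.98% higher and 7.56% lower. Beside Aats-tyr these were Aats-asp (adjusted p = 0.0370), Aats-asn (adjusted p = 0.0332), the summed feature of Aats-ala and CG13392 (adjusted p = 0.0374) and Aats-gln (adjusted p = 0.0481). The entry of Aats-ala alone was at 3.24 and 1.77 scaled FPKM in pellets 2 and 3, where the summed feature was at 36.0 and 25.4, so most of the level tested there was that of CG13392. With each library's own entry, joined with CG13392 only in pellets 1 and 4, the log2 difference of Aats-ala was 1.16. None of these 4 was called without the block. All 4 had positive differences in values as deposited.

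Aats-asp was at 20.6, 17.5, 13.8 and 22.2 scaled FPKM in pellets, against 31.7, 31.3, 27.5 and 29.6 in supernatants (log2 difference -0.70, SE 0.18, adjusted p = 0.0752 without the block). Its entry was joined with CR43468 in every library. Aats-gln was at 14.5, 18.2, 11.6 and 12.5 in pellets and at 20.8, 22.3, 19.5 and 18.6 in supernatants (log2 difference -0.52, SE 0.18). Aats-asn ranged from 8.60 to 13.6 in pellets and from 14.5 to 24.6 in supernatants (log2 difference -0.66, SE 0.22). Fractions did not overlap for these 3 genes.

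The mitochondrial members by current name had a median log2 difference of -0.39, the other tested members one of -0.27, and by the older symbols the difference of Aats-ala-m was -0.30, against a median of -0.38 over the other 18. The first median includes Aats-leu and Aats-phe, which had single values far above their others. It ranged from -0.63 to -0.20 with 1 replicate left out. The second includes features summed with other genes, and ranged from -0.35 to -0.26. Aats-ala-m was at 4.07, 4.29, 4.40 and 4.91 scaled FPKM in pellets, against 5.45, 5.07, 6.52 and 5.17 in supernatants. Every pellet lay below every supernatant, yet the gene was not called (SE 0.15, adjusted p = 0.280). Aats-ser was at 4.44, 4.72, 2.32 and 4.07 in pellets and at 5.44, 7.06, 3.55 and 6.48 in supernatants, which overlap (log2 difference -0.48, SE 0.28). Aats-met was at 7.21, 6.75, 2.06 and 2.63 in pellets and at 5.35, 3.14, 6.62 and 5.59 in supernatants, with wide overlap (log2 difference -0.26, SE 0.41). Aats-pro had a difference of -0.57 (SE 0.23, adjusted p = 0.187).

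The deposited head tables list a gene under its FlyBase identifier in some libraries and under an identifier of assembled transcripts in others, and some members follow that switch. Of the 168 entries of members in the 8 libraries, 101 were FlyBase entries, 40 were assembled entries of 1 gene and 27 were assembled entries joined with other genes. Aats-leu (chr3L:4825853-4829038, dm3) was at 101 scaled FPKM in pellet 1 and at 40.7 in supernatant 2, both assembled entries. In the 6 libraries with a FlyBase entry it was at 3.26 to 5.10 in pellets and at 3.33 to 3.63 in supernatants. The log2 difference of 0.46 (SE 1.21) turned to -0.93 without replicate 1 and was 1.77 without replicate 2.

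Aats-phe showed the same step. It was at 209 scaled FPKM in supernatant 3, an assembled entry, and at 16.2 to 20.5 in the other supernatants, against 13.3, 12.4, 11.6 and 22.6 in pellets. Its log2 difference was -1.19 (SE 0.78, adjusted p = 0.398), but -0.20 without replicate 3 and -0.07 over FlyBase entries. In supernatant 4 Aats-phe also had an assembled entry, at 20.5, so not every assembled entry stood apart. Among features of 1 gene, the highest supernatant exceeded the lowest more than 8-fold for 5.44% of 2924 features that had a FlyBase entry in 1 to 3 of the 4 supernatants, and for 2.10% of 2380 that had one in all 4.

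**Figure D4:**
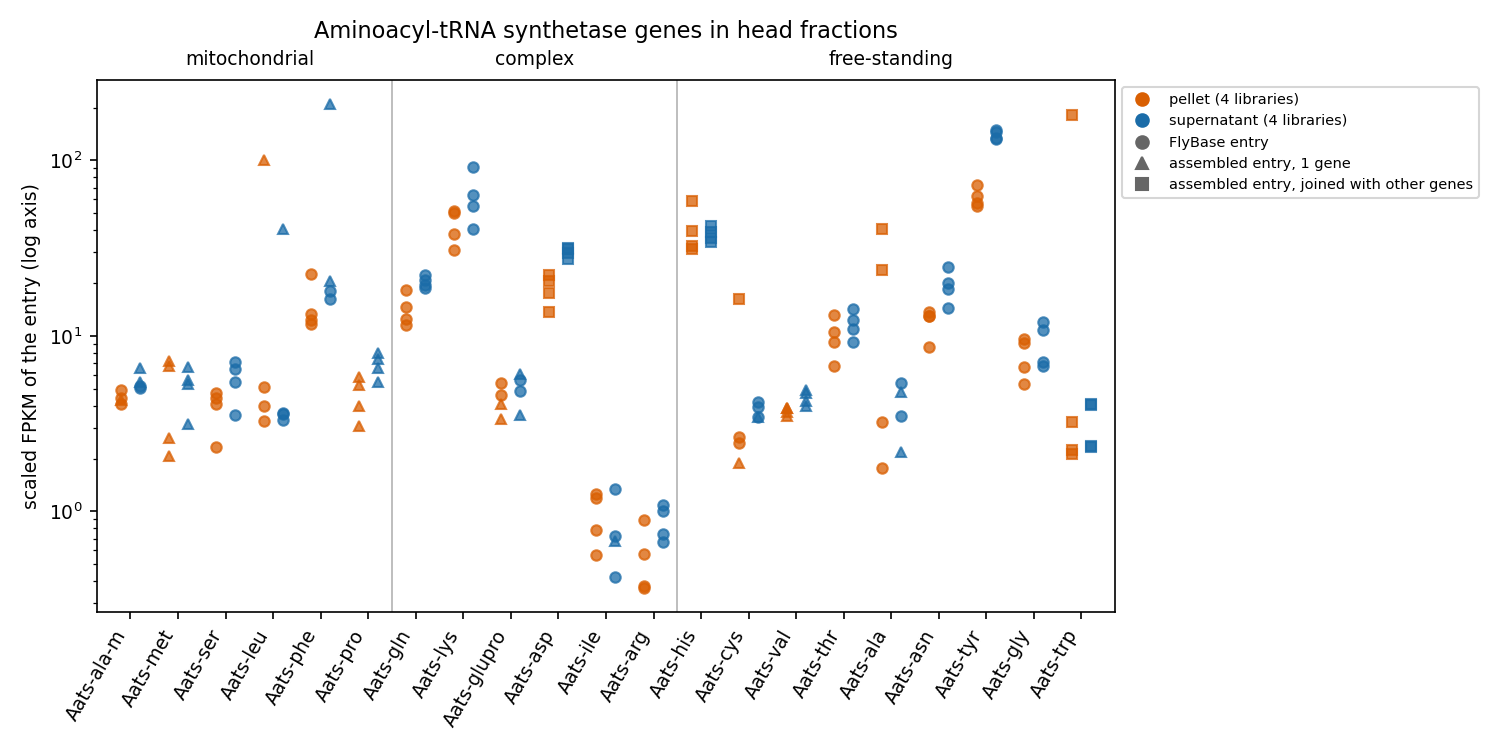
Scaled FPKM (log axis) of the entry that holds each member in each head library, pellet left of supernatant; circles are FlyBase entries, triangles assembled entries of 1 gene and squares assembled entries joined with other genes. For Aats-leu 2 triangles, for Aats-phe 1 triangle, for Aats-trp and Aats-cys 1 square each and for Aats-ala 2 squares lie far above the other points of their gene, while the 4 pellet points of Aats-tyr lie below its 4 supernatant points.

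Joined entries limit what can be said of 5 members in heads. Genes joined in any library were added up in all of them, so Aats-trp was tested together with D1 and sage, Aats-ala with CG13392, Aats-cys with CG30094, Aats-his with Bx and CG15048, and Aats-asp with CR43468. The entry of Aats-trp was at 182 scaled FPKM in pellet 2, where it held D1 as well, and at 2.12 to 4.08 in the other 7 libraries. Most of the feature's level, 161, 182, 111 and 142 in pellets and 102, 165, 76.3 and 81.5 in supernatants, is therefore that of the genes joined to it. The entry of Aats-ala was at 40.4 and 23.8 in pellets 1 and 4, where it was joined, at 3.24 and 1.77 in pellets 2 and 3, and at 2.18 to 5.41 in supernatants. With each library's own entry the log2 difference of Aats-cys was 0.04, positive like that of Aats-ala, where the summed features gave -0.27 for Aats-cys and -0.53 for Aats-ala.

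The other tested members in heads were not called. The feature of Aats-his was at 66.6, 51.1, 67.7 and 58.5 scaled FPKM in pellets, against 49.1, 53.2, 54.5 and 58.5 in supernatants, with overlap (log2 difference 0.17, SE 0.15, adjusted p = 0.524). This feature includes Bx. Without Bx the entry, still joined with CG15048, was at 39.7, 31.4 and 32.7 in pellets 1 to 3. In supernatants 1 to 4 that entry was at 36.0, 38.9, 34.2 and 42.3, and in pellet 4 it held Bx. Aats-lys ranged from 31.1 to 51.7 in pellets and from 40.8 to 91.3 in supernatants (log2 difference -0.52, SE 0.28). Aats-gly was at 9.65, 9.15, 5.30 and 6.63 in pellets and at 10.8, 11.9, 6.77 and 7.07 in supernatants, which overlap. Aats-thr, Aats-val and Aats-glupro had log2 differences of -0.25, -0.23 and -0.17, and none was called.

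Aats-arg and Aats-ile were too low to test in heads. Aats-arg was at 0.574, 0.890, 0.367 and 0.374 scaled FPKM in pellets and at 1.08, 1.01, 0.665 and 0.739 in supernatants. Aats-ile lay between 0.568 and 1.26 in pellets and between 0.422 and 1.34 in supernatants. Across the 16 members with a feature of their own, the mean in background S2 cells and the median in head supernatants had a Pearson r of 0.64 on the log2 scale and a Spearman rho of 0.65. This is a description across genes of 2 tables that were processed differently.

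Head replicates 5 and 6 list assembled loci without gene names. With at least 50% reciprocal overlap, 13 members were found in replicate 5 and 3 in replicate 6, as values with no test. Aats-tyr was at 95.1 FPKM in pellet 5 and at 118 FPKM in supernatant 5, a log2 difference of -0.40 relative to the median of 6342 genes found there in the same way. It was the lowest of the 13 on that scale, and 7 of the 13 were positive. Aats-asn, Aats-met and Aats-phe, the 3 members found in replicate 6, had relative differences of 0.11, 0.17 and -0.05.

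Of the genes around the synthetases, 3 elongation factors were called in the heads, where the rule called 3.74% of all features. Of 7 tested, Ef1gamma, Ef1beta and Ef2b fell in the pellet, by 1.56, 1.33 and 1.43 on the log2 scale (adjusted p = 0.00301, 0.0104 and 0.0288). Ef1gamma was at 194, 251, 196 and 292 scaled FPKM in pellets, against 626, 632, 722 and 738 in supernatants. None of the 11 tested synthetases with other symbols was called by limma (at an unadjusted p under 0.05, 4 were lower and 0 higher, against the 10.9% and 11.7% of all features, and 1 was called lower with the block), and their median log2 difference was -0.44, with 10 of 11 negative. None of the 6 scaffold and amidotransferase genes, 9 stress-response genes, 9 transporters, 5 tRNA processing genes and 10 genes of amino acid metabolism tested was called, and their medians were -0.26, 0.57, 0.37, -0.25 and -0.15. At an unadjusted p under 0.05 these lists held 1 lower scaffold gene, 3 higher and 1 lower stress-response genes, 1 higher transporter, 1 lower tRNA processing gene, and 1 higher and 1 lower gene of amino acid metabolism. The fit with the block called the same number of genes in each direction in each of these 5 lists. Some listed genes were also joined with others in heads and added up. They were Ef2b with snmRNA:254, CG31739 with mdy, CG5414 with CG5389, CG18619 with Mob3 and CG9987 with Rab9.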

How the data were processed

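The authors deposited RPKM per gene for the S2 libraries and FPKM per gene or assembled locus for the head libraries. The submitters' processing notes name build dm3 and CASAVA 1.9.1 for both, Bowtie, cutadapt and Novoalign for S2 cells and TopHat and Cufflinks for heads, with no role. Whether counting used strand is not given in the sources used here, so reads of overlapping genes may be shared. The head files hold 1 set of values per library, and genes joined under 1 entry in any of the 8 named libraries were summed into 1 feature.

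Libraries were scaled by median-of-ratios factors. The test was limma 3.58.1 (R 4.3.3), two-sided and with a variance trend, on the log2 of the scaled value plus 0.5, for features whose deposited mean reached 1. P-values were adjusted over all features by Benjamini-Hochberg, and an adjusted p under 0.05 was called. On this scale the change of low genes is understated. The procedure was tested on simulated data. Without known depth, no counting interval can be given. Tables were made with pandas 2.3.3 and numpy 2.4.6 in Python 3.11.15, and figures with matplotlib 3.10.9. Of 13792 S2 identifiers, 12895 matched the name table.

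Every member is named. Values per library are given for members called in either comparison, for Aats-ala-m and for the 3 members with the highest mean, and up to 4 called genes of each pathway list are named. Members, lists and most tests were chosen with earlier results of these data known. The division into complex and free-standing members and the pairs were made after values were seen. Same-numbered head libraries correlated across genes at 0.166, 0.191, 0.326 and 0.196, each above 0.1, so the numbers were taken to pair them, from the data alone; replicates 1 and 2 also correlated with each other's libraries at 0.143 and 0.113. Alternatives were other pseudocounts, filters, scalings, no trend, the block, each replicate left out, exact 0 as missing, features of 1 gene and, added after seeing the data, each library's own entry and FlyBase entries alone.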

Additional observations from a re-analysis of the deposited data

Results flagged for a closer look

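Of 42 groups of 4 head libraries (21 members in 2 fractions), 5 held a library far from the other 3, by Dixon's criterion on the gap to the nearest library over the whole range. Chance alone marks about 1 in 20 such groups. Aats-leu was at 101 scaled FPKM in pellet 1, against 3.26 to 5.10 in the other pellets, and at 40.7 in supernatant 2, against 3.33 to 3.63 in the other supernatants. Both values come from assembled entries, and the others from FlyBase entries. Aats-phe was at 22.6 in pellet 4, against 11.6 to 13.3 in the other pellets, and at 209 in supernatant 3, an assembled entry, against 16.2 to 20.5 in the other supernatants. Aats-asn was at 8.60 in pellet 3, against 12.9 to 13.6 in the other pellets.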

How the results depend on the processing

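In S2 cells 9 members were called. The number was 9 to 11 in the other planned fits, and 2 and 3 without Orb2B replicates 1 and 2, so the range with 1 library left out was 2 to 11. A lone library is there assumed to vary like the other group. The share of all genes called in those fits is not given here, so these counts cannot be set against it. With the replicate block 11 members were called (the same fit called 43% of all genes), Aats-ile and Aats-lys being added. Same-numbered S2 libraries correlated at only 0.050. This is a single value, since with 2 libraries per group both pairs must give the same one. Near-zero differences changed sign: Aats-pro and Aats-thr were at -0.032 and -0.039 with a minimum mean of 5 and at -0.025 and -0.031 as deposited, and Aats-thr was at -0.18 after quantile normalization. With 1 library left out, Aats-pro ranged from -0.080 to 0.11, Aats-thr from -0.11 to 0.14 and Aats-glupro from -0.34 to 0.19.

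The S2 median of the 6 mitochondrial members, 0.61, was 0.64 and 0.59 at pseudocounts of 0.1 and 1, 0.64 with no filter, 0.67 with a minimum of 5, 0.55 as deposited and 0.77 after quantile normalization, and 0.49 to 0.71 with 1 library left out. That of the 15 others was -0.39, -0.38 and -0.44 with a minimum of 5, as deposited and after quantile normalization, and -0.31 to -0.26 with 1 library left out. Aats-ala-m was at 0.71, 0.72 and 0.94 in the same 3 fits and at 0.73 to 0.84 with 1 library left out.

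In heads 1 member was called, where the same fit called 3.74% of all features, and 5 with the replicate block, where it called 14.5%. The number was 2 with a minimum of 5, 7, all higher, as deposited, and 0 to 1 with 1 replicate left out. The shares of all features called in those fits are not given here, so these counts cannot be set against them. As deposited, medians were 0.52 for the 6 mitochondrial and 0.66 for the 13 other tested members, 0.61 for Aats-ala-m and 0.56 for the members other than Aats-ala-m. Signs were then reversed for Aats-ala (0.46), Aats-ala-m (0.61), Aats-asn (0.31), Aats-asp (0.28), Aats-cys (0.71), Aats-gln (0.46), Aats-glupro (0.73), Aats-gly (0.71), Aats-lys (0.48), Aats-met (0.64), Aats-pro (0.35), Aats-ser (0.42), Aats-thr (0.71) and Aats-val (0.66); this scale keeps the general shift of 0.87. Over FlyBase entries Aats-ala-m was at -0.039, the median of the mitochondrial members at -0.055 and Aats-glupro at 0.017. With own entries Aats-ala was at 1.16 and Aats-cys at 0.044. Those entries were joined with another gene in pellets 1 and 4 for Aats-ala and in pellet 3 for Aats-cys, and in no supernatant. Leaving out 1 replicate moved Aats-leu between -0.93 and 1.77 and Aats-met between -0.68 and 0.16. The cause of these shifts was not tested.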
